A study of Mus musculus with 9 samples.

Results

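The Fc receptors for IgG and their signalling partners were taken as 6 genes chosen by symbol, of the 55401 genes in the deposited table, and all 6 passed the filter on low values (a mean of at least 1 TPM over the 9 columns). They are the activating receptors Fcgr1, Fcgr3 and Fcgr4, the inhibitory receptor Fcgr2b, the shared signalling chain Fcer1g and the kinase Syk. They were measured by RNA-seq in RAW264.7 cells, a macrophage line made from a tumour that Abelson murine leukemia virus induced in a male mouse, of wild-type (WT) genotype as labelled. The cells were grown as DMSO (the solvent), as LPS (DMSO plus lipopolysaccharide, a bacterial wall component that activates macrophages) or as LPS + Ska (lipopolysaccharide plus skatole, an indole compound), with 3 columns in each group. The labels and the results text of the study give a treatment of 24 h, while the methods of the study give a longer time. RAW264.7 is a single transformed line, so the columns do not stand for separate animals, and no source says that they came from separate cultures. All p-values therefore measure the spread between columns, which may be technical.

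Receptors for the Fc part of IgG let macrophages bind and engulf antibody-coated particles. The activating receptors carry no signalling motif of their own and are held at the surface with the Fcer1g chain, whose immunoreceptor tyrosine-based activation motif (ITAM) is phosphorylated by Src family kinases and then bound by Syk. Fcgr2b instead carries an inhibitory motif (ITIM) that recruits phosphatases such as SHIP1, and the ratio of activating to inhibitory receptors is known to set how strongly immune complexes act on a macrophage. The codons that encode both motifs are shown here because they separate the activating arm from the inhibitory one, with the codons of the tyrosines in capitals, 5′ to 3′ on the coding strand of GRCm38 (minus strand of chromosome 1). The ITAM spans codons 65 to 79 of the 86 of Fcer1g, in 2 exons between chr1:171229889-171230072, and the ITIM spans codons 317 to 322 of the 340 of Fcgr2b at chr1:170961071-170961088.
Fcer1g ITAM: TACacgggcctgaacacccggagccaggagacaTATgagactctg
Fcgr2b ITIM: atcaccTACtcacttctc

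In LPS, 2 of the 6 genes rose (Fcgr2b and Fcgr4), 1 fell (Fcgr3) and 3 were not called (Fcgr1, Fcer1g and Syk), compared with DMSO. Of all 12819 genes tested, 32.7% were called in that comparison, 12.7% higher and 20.0% lower. In LPS + Ska compared with LPS, only Fcgr1 was called among the 6, and it fell. In that comparison 9.49% of genes were called, 3.35% higher and 6.14% lower. In LPS + Ska compared with DMSO, Fcgr2b and Fcgr4 were higher and Fcgr3 lower, against 36.7% of genes called, 11.4% higher and 25.3% lower. A call means a Benjamini-Hochberg adjusted p below 0.05 from limma with a fold change above 1.5 or below 0.67 on log2(TPM + 1), a scale that understates the change of low genes. After median-ratio scaling of the columns, the share of called genes that were higher went from 38.9% to 47.2% in LPS compared with DMSO, from 35.3% to 51.7% in LPS + Ska compared with LPS and from 31.0% to 47.5% in LPS + Ska compared with DMSO. The comparisons share columns (DMSO, LPS or LPS + Ska each enter 2 of them), so they are not independent of each other.

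Both groups that received LPS had tied columns. Replicate 5 was the mean of replicates 6 and 7, to within 5e-06 TPM, for all 17950 genes with both of these above 0 in LPS and all 17658 in LPS + Ska, whereas no DMSO column was the mean of the other two for more than 0.207% of genes, at a tolerance of 0.0001 TPM. Each of these groups thus holds at most 2 independent values per gene, so their SD over 3 columns is not that of 3 measurements. For each group 2 underlying values were recovered and tested as well. This assumed that replicates 6 and 7 each lie away from replicate 5 by the whole difference between the underlying values. The recovered values therefore lie closer together than replicates 6 and 7, and their spread rests on that assumption. All 18 results for the 6 genes (called higher, called lower or not called) were the same with the recovered values. The macrophage label was met by 7 of 8 marker genes with a mean of at least 1 TPM, while Mertk was listed at 0 in every column. The summed level of that list was 12280 to 13240 TPM in DMSO, 7239 to 7640 TPM in LPS and 13540 to 13830 TPM in LPS + Ska, and its part in the results was not tested. Lyz2 held most of that sum, with means of 9151, 4423 and 10060 TPM in these groups in turn, and Itgam was also lowest in LPS. Cd14 instead rose at each step (1296, 1523 and 2218 TPM). Csf1r was lower in LPS and lowest in LPS + Ska (834.6, 521.6 and 466.7 TPM), as were Cd68, Adgre1 and Spi1. Markers of T and NK cells, mast cells, dendritic cells, fibroblasts and epithelial or endothelial cells had no gene with a mean of 1 TPM, and of 5 neutrophil markers only S100a8 did. In such bulk samples, fewer cells expressing a gene and less RNA per cell cannot be told apart.

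**Figure D1:**
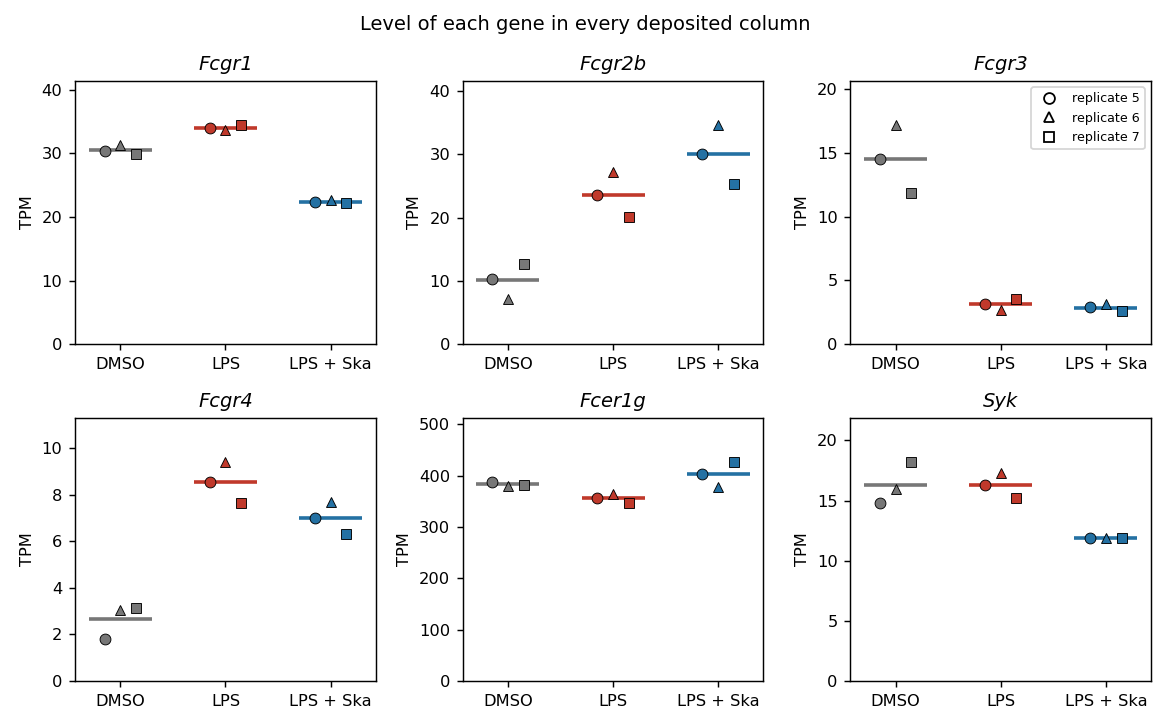
TPM of the 6 genes in each column of DMSO, LPS and LPS + Ska (y axes in TPM, one panel per gene), with a line at the mean of the 3 columns. Fcgr3 fell from a mean of 14.5 TPM in DMSO to 3.12 TPM in LPS, and the Fcgr1 columns of LPS + Ska lie below those of both other groups.

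Fcgr1 encodes the high-affinity receptor for IgG (CD64) and lies on the minus strand at chr3:96282909-96293969, apart from the other receptor genes. Its level was 30.3, 31.4 and 29.9 TPM in DMSO, 34.1, 33.7 and 34.5 TPM in LPS and 22.4, 22.6 and 22.1 TPM in LPS + Ska, replicates 5, 6 and 7 in turn. No column of any group lay within the range of another, with LPS the highest and LPS + Ska the lowest. The mean was 30.5 ± 0.767 TPM in DMSO, 34.1 ± 0.411 in LPS and 22.4 ± 0.240 in LPS + Ska (SD, n = 3 columns, as for all means below). Between LPS and LPS + Ska, Fcgr1 fell by 0.59 on the log2 scale (SE 0.057, adjusted p = 1.9e-04), a ratio of mean TPM of 0.656. With the recovered values, at most 2 per group, the SE was 0.079 and the adjusted p 0.0034. The call was close to its limit, as the fold on the log2(TPM + 1) scale was 0.666 against a limit of 0.67, and it was lost without LPS replicate 7 (log2 fold change -0.58) and after scaling the columns by their median ratio (-0.49). LPS exceeded DMSO by 0.15 (SE 0.057, adjusted p = 0.042), a small difference that was not called and whose adjusted p was 0.10 with the recovered values, within a range of 0.0057 to 0.27 over its alternatives. Against DMSO, LPS + Ska was lower by -0.43 (SE 0.057, adjusted p = 1.4e-04), inside the fold limit and so not called.

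Fcgr3 encodes a low-affinity activating receptor for IgG (CD16) and lies on the minus strand at chr1:171051174-171064935. Its level was 14.5, 17.2 and 11.8 TPM in DMSO, 3.12, 2.67 and 3.57 TPM in LPS and 2.88, 3.15 and 2.60 TPM in LPS + Ska. Every LPS and LPS + Ska column lay far below the lowest DMSO column, while LPS and LPS + Ska overlapped, in the columns and in the recovered values. From DMSO (14.5 ± 2.67 TPM) to LPS (3.12 ± 0.448 TPM) Fcgr3 fell by 1.90 (SE 0.148, adjusted p = 6.6e-06), which took it from the 39.97th to the 16.2nd percentile of the tested genes. In LPS + Ska the level was 2.88 ± 0.276 TPM, and the difference from LPS was -0.08 with a 95% interval of -0.42 to 0.25 (adjusted p = 0.70). Compared with DMSO it was lower in LPS + Ska by -1.99 (SE 0.148, adjusted p = 4.0e-06). Of the 6 genes it had the highest fold change in either direction, in both comparisons with DMSO.

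Fcgr4 encodes the other mouse activating receptor for IgG, which prefers IgG2 subclasses, and lies on the plus strand at chr1:171018920-171029761. Its level was 1.81, 3.04 and 3.11 TPM in DMSO, 8.52, 9.42 and 7.62 TPM in LPS and 6.99, 7.68 and 6.30 TPM in LPS + Ska. All DMSO columns lay below all columns of both other groups, and the lowest LPS column lay just below the highest of LPS + Ska. The recovered values did not overlap (8.07 and 8.97 TPM in LPS, 6.65 and 7.34 TPM in LPS + Ska), but they lie closer together by construction. With them the adjusted p between these groups was 0.43 by limma. Fcgr4 rose from 2.65 ± 0.734 TPM in DMSO to 8.52 ± 0.896 TPM in LPS (log2 fold change 1.40, SE 0.162, adjusted p = 7.3e-05). In LPS + Ska it was 6.99 ± 0.690 TPM, which differed from LPS by -0.25 with a 95% interval of -0.62 to 0.11 (adjusted p = 0.27), and from DMSO by 1.15 (SE 0.162, adjusted p = 2.2e-04). Fcgr3 and Fcgr4 thus moved in opposite directions with LPS, and the ratio of Fcgr3 to Fcgr4 was 5.83 in DMSO, 0.373 in LPS and 0.411 in LPS + Ska.

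Fcgr2b encodes the inhibitory receptor (CD32B) and lies on the minus strand at chr1:170958617-170976547. Its level was 10.4, 7.15 and 12.8 TPM in DMSO, 23.7, 27.3 and 20.1 TPM in LPS and 30.0, 34.7 and 25.4 TPM in LPS + Ska. All columns of both LPS groups lay above the highest DMSO column, and the LPS and LPS + Ska columns overlapped. Their recovered values did not (21.9 and 25.5 TPM in LPS, 27.7 and 32.4 TPM in LPS + Ska), but these lie closer together by construction. With them the adjusted p between LPS and LPS + Ska was 0.33 by limma. It rose from 10.1 ± 2.81 TPM in DMSO to 23.7 ± 3.60 TPM in LPS (log2 fold change 1.17, SE 0.194, adjusted p = 6.5e-04) and was 30.0 ± 4.65 TPM in LPS + Ska (1.505 against DMSO, SE 0.194, adjusted p = 1.2e-04). Between LPS and LPS + Ska the difference of 0.33 had a 95% interval of -0.11 to 0.77 (adjusted p = 0.23) and was not called.

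**Figure D2:**
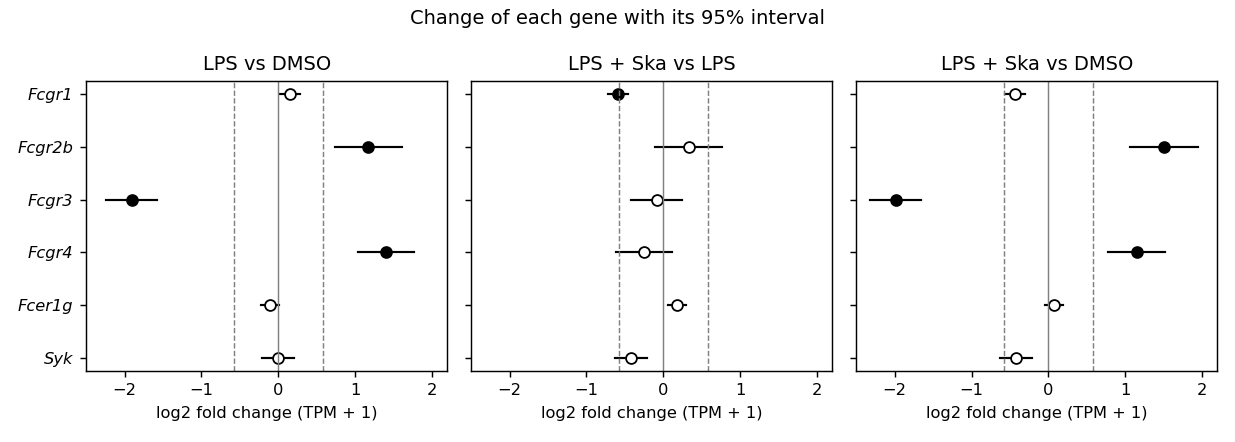
Log2 fold change of each gene on log2(TPM + 1) in the 3 comparisons, with 95% intervals from limma, dashed lines at the fold limits and filled points for called genes. Fcgr2b and Fcgr4 lie above 0 and Fcgr3 below 0 in both comparisons with DMSO, and Fcgr1 (-0.59) is the lowest in LPS + Ska compared with LPS.

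Fcgr2b and Fcgr3 are close copies, and reads from one could in part be counted for the other. Their principal coding sequences (1023 and 804 bases, GENCODE M21) were identical at 84.4% of 784 aligned bases, whereas the other receptor pairs reached 60.6 to 66.3%. The longest stretch the pair shares is 129 bases (positions 278 to 406 of the Fcgr2b coding sequence and 263 to 391 of Fcgr3), printed because a read that falls within it cannot be assigned by sequence, and with no capitals as every base is shared.
Fcgr2b and Fcgr3 shared stretch: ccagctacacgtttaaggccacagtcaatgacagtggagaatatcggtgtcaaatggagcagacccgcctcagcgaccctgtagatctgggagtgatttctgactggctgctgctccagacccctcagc
Of all windows of 50 bases in the annotated transcripts of Fcgr3, 9.58% also occurred in Fcgr2b, and of those in Fcgr2b 2.92% occurred in Fcgr3. For windows of 100 bases the shares were 2.54% and 0.753%, and no window of 150 bases was shared. Of the windows of Fcgr2b, 1.46% at 50 bases and 0.65% at 100 bases also occurred in genes outside the 6, which was so for no window of the other 5 genes. The span of the antisense gene Gm38204 overlaps that of Fcgr2b, and the sources do not say that reads were counted by strand. Whether their exons overlap was not checked, so it is unknown whether reads of both can be told apart. The mean of Gm38204 was 0 TPM in DMSO, 0.175 TPM in LPS and 0 TPM in LPS + Ska. Fcgr1 and Fcgr4 shared no window of 50 bases with the other receptors.

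The summed level of Fcgr2b and Fcgr3 was 24.9, 24.3 and 24.6 TPM in the DMSO columns (24.6 ± 0.290 TPM), although Fcgr2b alone had an SD of 2.81 TPM there and Fcgr3 one of 2.67 TPM. The DMSO column with the most Fcgr3 had the least Fcgr2b, and the reverse. In LPS the sum was 26.8 ± 3.15 TPM and in LPS + Ska 32.9 ± 4.93 TPM, while the gene that made up most of it went from Fcgr3 to Fcgr2b. Whether reads passed between the pair was not tested, as the deposited values do not show the reads.

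**Figure D3:**
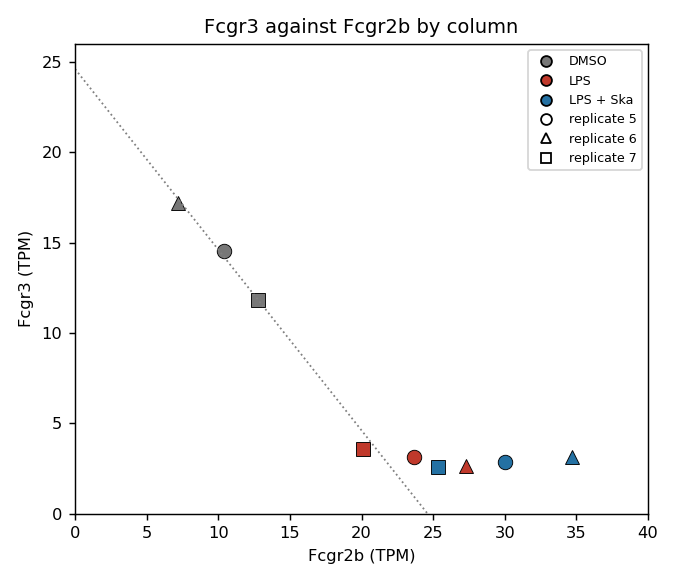
Fcgr3 (y axis) against Fcgr2b (x axis) in each column (both axes in TPM), with colours for the groups, shapes for replicates and a dotted line where the sum equals the DMSO mean of 24.6 TPM. The 3 DMSO columns lie along a falling line with a sum between 24.3 and 24.9 TPM, and the columns of LPS and LPS + Ska lie at 2.60 to 3.57 TPM of Fcgr3 and 20.1 to 34.7 TPM of Fcgr2b.

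Fcer1g encodes the common gamma chain and lies on the minus strand at chr1:171229572-171234365. It was by far the most abundant of the 6 in TPM, a unit scaled by transcript length. Its level was 388, 380 and 382 TPM in DMSO, 356, 364 and 347 TPM in LPS and 402.5, 378 and 427 TPM in LPS + Ska. The LPS columns lay below those of both other groups, which overlapped each other. The recovered values of LPS + Ska (390.0 and 415 TPM) lay above the DMSO columns, but they lie closer together by construction. With them the adjusted p between LPS + Ska and DMSO was 0.28 by limma. Means were 383 ± 4.40, 356 ± 8.39 and 402.5 ± 25.0 TPM, between the 97.0th and 97.4th percentiles of the tested genes. LPS + Ska was higher than LPS by 0.18 (SE 0.053, adjusted p = 0.035), inside the fold limit, and the adjusted p was 0.068 with the recovered values within a range of 0.0089 to 0.12 over its alternatives. LPS differed from DMSO by -0.11 with a 95% interval of -0.23 to 0.01 (adjusted p = 0.11), and LPS + Ska from DMSO by 0.07 with an interval of -0.05 to 0.19 (adjusted p = 0.28).

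Syk encodes the tyrosine kinase that binds the phosphorylated ITAM and lies on the plus strand at chr13:52583173-52648792. Its level was 14.8, 15.9 and 18.2 TPM in DMSO, 16.3, 17.3 and 15.2 TPM in LPS and 11.9, 11.9 and 11.9 TPM in LPS + Ska. All LPS + Ska columns lay below the lowest column of the other groups, and the DMSO and LPS columns overlapped. Between LPS (16.3 ± 1.05 TPM) and LPS + Ska (11.9 ± 0.00785 TPM) the difference was -0.42 (SE 0.091, adjusted p = 0.0093), past the p limit but inside the fold limit, with a ratio of mean TPM of 0.731. With the recovered values its adjusted p was 0.045 (SE 0.12), close to the limit, within a range of 0.0050 to 0.047 over its alternatives. Compared with DMSO (16.3 ± 1.75 TPM) the difference of LPS + Ska was -0.42 as well (SE 0.091, adjusted p = 0.0028). LPS and DMSO differed by -0.004 with a 95% interval of -0.21 to 0.20 (adjusted p = 0.98).

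In DMSO the order of levels was Fcer1g, Fcgr1, Syk, Fcgr3, Fcgr2b and Fcgr4, and the columns of Syk and Fcgr3, and those of Fcgr3 and Fcgr2b, overlapped. In LPS it was Fcer1g, Fcgr1, Fcgr2b, Syk, Fcgr4 and Fcgr3, and in LPS + Ska Fcgr2b stood above Fcgr1, with no overlap between neighbours in either group. The sum of the activating receptors over Fcgr2b, a description with no test, was 4.49, 7.21 and 3.52 in the DMSO columns, 1.93, 1.68 and 2.28 in LPS, and 1.07, 0.964 and 1.22 in LPS + Ska. The columns of the 3 groups did not overlap in this ratio, whose means were 5.07 ± 1.92, 1.96 ± 0.300 and 1.09 ± 0.130, but those of both LPS groups are tied. In LPS the activating sum was 45.7 TPM against 47.7 TPM in DMSO, so the lower ratio went with a higher Fcgr2b, and in LPS + Ska the activating sum was 32.2 TPM, of which Fcgr1 held most. The ratio in LPS + Ska also holds a higher Fcgr2b than in LPS, a difference that was not called (adjusted p = 0.23 by limma). Fcgr2b made up 17.5% of the summed TPM of the 4 receptors in DMSO, 34.0% in LPS and 48.04% in LPS + Ska, while Fcgr3 made up 25.1%, 4.53% and 4.62%. The level of Fcer1g over the summed activating receptors was 8.06 ± 0.620 in DMSO, 7.78 ± 0.178 in LPS and 12.5 ± 1.25 in LPS + Ska.

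**Figure D4:**
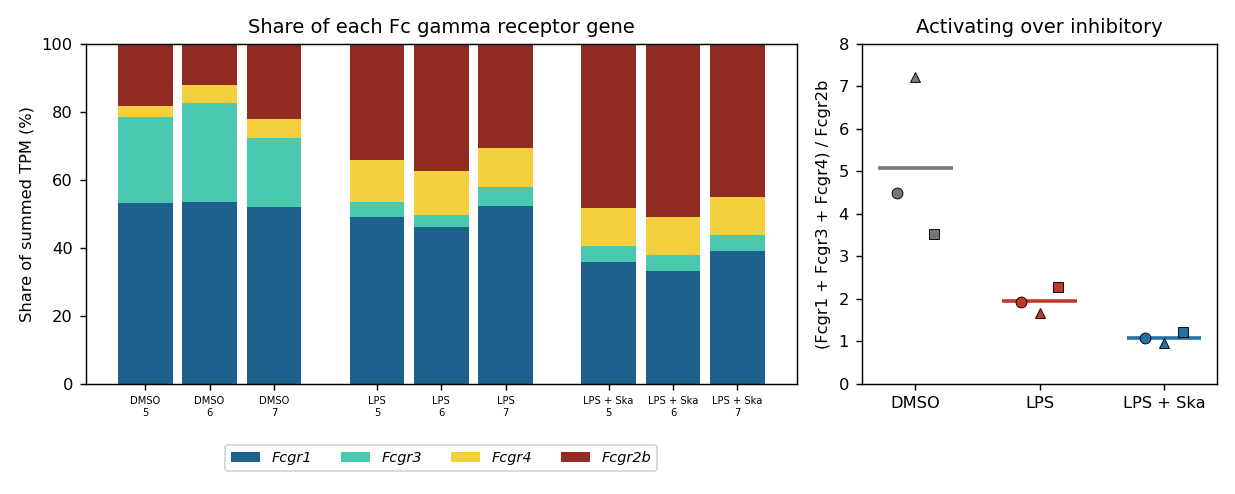
Left, share of the summed TPM of the 4 receptor genes (percent) in each column, and right, the activating sum over Fcgr2b in each column with a line at the group mean. The Fcgr2b share is lowest in DMSO and highest in LPS + Ska, and the ratio falls from a mean of 5.07 in DMSO to 1.09 in LPS + Ska.

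Fcgr2b, Fcgr4, Fcgr3 and Fcer1g lie within 275.7 kb of chromosome 1, where 17 genes are annotated and 6 were tested. The 2 tested neighbours that are not members both fell with LPS, namely Sdhc, a subunit of succinate dehydrogenase (log2 fold change -0.61, adjusted p = 8.5e-06), and Tomm40l (-0.99, adjusted p = 5.0e-05). With Fcgr2b and Fcgr4 higher, Fcgr3 lower and Fcer1g not called, the 6 tested genes of this stretch did not share a direction in LPS. The promoters of the 4 receptor genes are printed because these genes moved in different directions. They are 300 bases each, from 250 before to 50 after the first start site in RefSeq (GRCm38.p6), 5′ to 3′ on the gene's strand, at chr3:96293920-96294219 (minus) for Fcgr1, chr1:171059354-171059653 (minus) for Fcgr3, chr1:171018676-171018975 (plus) for Fcgr4 and chr1:170976022-170976321 (minus) for Fcgr2b. Capitals mark matches, on either strand, to the letters of 3 motifs, TTCNNNGAA (GAS, the interferon gamma activated site), GAAANNGAA (ISRE, the interferon response element) and GAGGAA (the PU.1 core), none of which overlap each other.
Fcgr1 promoter: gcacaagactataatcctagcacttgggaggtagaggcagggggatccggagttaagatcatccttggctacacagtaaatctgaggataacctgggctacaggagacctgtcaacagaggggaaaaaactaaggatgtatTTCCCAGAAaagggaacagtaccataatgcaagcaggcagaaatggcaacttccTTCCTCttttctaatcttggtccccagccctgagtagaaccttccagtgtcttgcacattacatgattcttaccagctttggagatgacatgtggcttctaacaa
Fcgr3 promoter: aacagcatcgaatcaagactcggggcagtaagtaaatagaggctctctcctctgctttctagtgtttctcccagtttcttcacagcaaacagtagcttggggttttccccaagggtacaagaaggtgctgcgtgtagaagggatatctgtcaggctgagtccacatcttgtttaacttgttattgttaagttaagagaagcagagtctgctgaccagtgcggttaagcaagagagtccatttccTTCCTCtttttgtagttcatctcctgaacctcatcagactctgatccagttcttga
Fcgr4 promoter: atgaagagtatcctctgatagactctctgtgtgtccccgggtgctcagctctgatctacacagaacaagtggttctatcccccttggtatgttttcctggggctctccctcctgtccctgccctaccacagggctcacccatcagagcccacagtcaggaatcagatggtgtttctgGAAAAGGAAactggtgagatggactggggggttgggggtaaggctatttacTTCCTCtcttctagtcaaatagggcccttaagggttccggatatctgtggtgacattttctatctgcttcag
Fcgr2b promoter: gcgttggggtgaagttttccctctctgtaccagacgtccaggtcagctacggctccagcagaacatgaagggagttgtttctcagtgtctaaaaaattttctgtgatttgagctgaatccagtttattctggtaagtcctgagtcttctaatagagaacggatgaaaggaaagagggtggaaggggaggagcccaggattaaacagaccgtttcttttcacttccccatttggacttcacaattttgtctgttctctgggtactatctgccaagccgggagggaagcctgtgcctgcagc
The Fcgr1 promoter held a GAS match 109 bases before the start and a PU.1 match 55 before. The Fcgr4 promoter held an ISRE match 73 bases before and a PU.1 match 22 before, the Fcgr3 promoter a PU.1 match 6 before, and that of Fcgr2b none. Of all 32817 promoters of the same length, 8.29% held GAS, 8.55% ISRE and 28.3% PU.1 letters, and 39.3% held at least one. A match is a description of letters, not a site, and no match says only that these letters are not in the window.

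Genes around these 6 were counted in 7 lists of the pathway, with 116 genes of which 93 were tested. With LPS, 11 of the 93 were higher (11.8%, against 12.7% of all genes) and 34 were lower (36.6%, against 20.0%). In LPS + Ska compared with LPS, 7 were higher (7.53%, against 3.35%) and 5 were lower (5.38%, against 6.14%), and in LPS + Ska compared with DMSO 10 were higher (10.8%, against 11.4%) and 35 lower (37.6%, against 25.3%). After median-ratio scaling 11 were higher and 28 lower in LPS, and 9 higher and 3 lower in LPS + Ska compared with LPS. Of all 12819 genes, 1946 were then higher and 2180 lower in LPS compared with DMSO. In LPS + Ska compared with LPS, 584 were higher and 546 lower. The median of all tested genes was -0.07 in LPS compared with DMSO and -0.10 in LPS + Ska compared with LPS. The adjusted p-values of list genes below come from limma on the columns as deposited. Those given for LPS + Ska compared with LPS were all higher with the recovered values. Examples are 4.3e-05 for Clec4d, 0.0081 for Prkca, 0.024 for Cblb and 0.046 for Hcst.

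Of the other Fc receptors 3 of 14 were tested, and 1 fell with LPS. This was Fcgrt, the neonatal receptor that recycles IgG, which went from 7.21 ± 1.07 to 1.22 ± 0.843 TPM (log2 fold change -1.96, adjusted p = 1.9e-04) and was 2.08 ± 0.416 TPM in LPS + Ska. The chains of the IgE receptor, Fcer1a and Ms4a2, were listed at 0.

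Of the Src family kinases and their regulators, 10 of 12 were tested, with 2 higher and 2 lower in LPS and none called in LPS + Ska compared with LPS. Fgr, a myeloid kinase, fell from 14.8 ± 1.61 to 5.40 ± 0.0366 TPM (adjusted p = 2.0e-05), and Csk, which restrains the family, from 244 ± 11.1 to 144 ± 0.116 TPM (adjusted p = 8.3e-06). Src and Lck rose from low levels, to 1.85 ± 0.383 and 4.61 ± 0.164 TPM (adjusted p = 9.3e-05 and 1.7e-04). The median of the list was -0.14 in LPS compared with DMSO.

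Of the enzymes and adaptors that act after Syk, 30 of 32 were tested, with 5 higher and 11 lower in LPS and 3 lower in LPS + Ska compared with LPS. Those 3 were Vav3, an exchange factor for small GTPases (13.9 ± 0.259 to 6.98 ± 1.10 TPM, log2 fold change -0.91, adjusted p = 0.0017), Prkca, a protein kinase C (18.3 ± 0.602 to 9.70 ± 1.15 TPM, -0.86, adjusted p = 9.6e-04), and Tec, a kinase that acts on phospholipase C gamma (22.5 ± 1.90 to 13.9 ± 0.482 TPM, -0.65, adjusted p = 6.2e-04). Vav3 and Prkca were higher in LPS than in DMSO (0.83 and 2.63), while Tec was not called there, and the call of Tec was lost after median-ratio scaling. Lcp2, the adaptor SLP-76, rose with LPS from 89.7 ± 6.32 to 234 ± 2.29 TPM (1.38, adjusted p = 4.8e-07).

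All 20 genes of the phagocytic cup were tested, and 1 was higher and 4 lower in LPS. In LPS + Ska compared with LPS only Dock2, an activator of Rac, was called, and it fell from 41.7 ± 0.666 to 27.2 ± 4.68 TPM (adjusted p = 0.0048). After median-ratio scaling Dock2 was not called and Marcksl1 was called higher, and the median of the list went from -0.04 to 0.06. Gsn, which severs actin filaments, fell with LPS from 210.1 ± 7.91 to 66.8 ± 3.20 TPM (adjusted p = 3.7e-07), and Marcksl1, which binds actin, rose from 59.8 ± 7.88 to 147 ± 12.01 TPM (adjusted p = 5.7e-06). Limk1, which inactivates cofilin, fell by 1.01 on the log2 scale (adjusted p = 0.0012).

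All 12 inhibitors of Fc receptor signalling were tested, with 1 higher and 4 lower in LPS and 1 lower in LPS + Ska compared with LPS. This was Cblb, a ubiquitin ligase, at 4.41 ± 0.103 TPM in LPS and 2.38 ± 0.450 TPM in LPS + Ska (adjusted p = 0.0045). Dok1, an adaptor, fell with LPS from 39.6 ± 2.77 to 15.5 ± 0.111 TPM (adjusted p = 3.0e-06) and Inppl1, the phosphatase SHIP2, by 1.02 on the log2 scale (adjusted p = 2.6e-04). Inpp5d, the phosphatase SHIP1, had means of 80.8 TPM in DMSO, 51.9 TPM in LPS and 40.3 TPM in LPS + Ska. It was called lower than in DMSO in both (-0.63 and -0.99), and was not called between LPS and LPS + Ska (-0.36). Ptpn22, a tyrosine phosphatase, rose from 66.97 ± 4.70 to 130 ± 1.48 TPM (adjusted p = 9.8e-06).

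Of the list of other ITAM adaptors and receptors that signal through Syk, 7 of 13 were tested, with 1 higher and 5 lower in LPS (median -0.85) and 5 higher and none lower in LPS + Ska compared with LPS (median 0.90), or 4 higher with the recovered values. The list includes Hcst, an adaptor without an ITAM that recruits PI3-kinase, and without it (an alternative chosen after the data had been seen) 1 was higher and 4 lower of 6 in LPS (median -0.75) and 4 were higher in LPS + Ska compared with LPS (median 0.85), or 3 with the recovered values. Clec4d, a C-type lectin, went from 206 ± 3.87 TPM in DMSO to 130 ± 3.85 in LPS and 375 ± 4.21 in LPS + Ska (1.52 against LPS, adjusted p = 2.6e-07). Trem2, a lipid receptor that works with Tyrobp, went from 324 ± 59.7 to 36.2 ± 6.27 and 99.5 ± 19.0 TPM (1.43 against LPS, adjusted p = 6.5e-04). Hcst rose in LPS + Ska compared with LPS by 0.90 (adjusted p = 0.021), and Clec4n by 1.04 (adjusted p = 0.024, and not called with the recovered values). Fcer1g, which also carries Clec4n and Clec4d signals, was not called in that comparison.

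Of the ITIM receptors, the class to which Fcgr2b belongs, 11 of 13 were tested, with 1 higher and 7 lower in LPS (median -1.09) and 2 higher in LPS + Ska compared with LPS. Pirb fell from 7.21 ± 1.53 to 0.818 ± 0.105 TPM with LPS (adjusted p = 5.0e-06), and Pilra rose from 0.828 ± 0.223 to 4.39 ± 0.885 TPM (adjusted p = 2.7e-05). Clec4a2 rose in LPS + Ska compared with LPS from 9.26 ± 0.548 to 19.8 ± 5.51 TPM (adjusted p = 0.0040), and Cd300a from 8.64 ± 1.36 to 15.6 ± 2.68 TPM (adjusted p = 0.0037). Pilra was the only receptor of the list called higher with LPS, as Fcgr2b was.

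**Figure D5:**
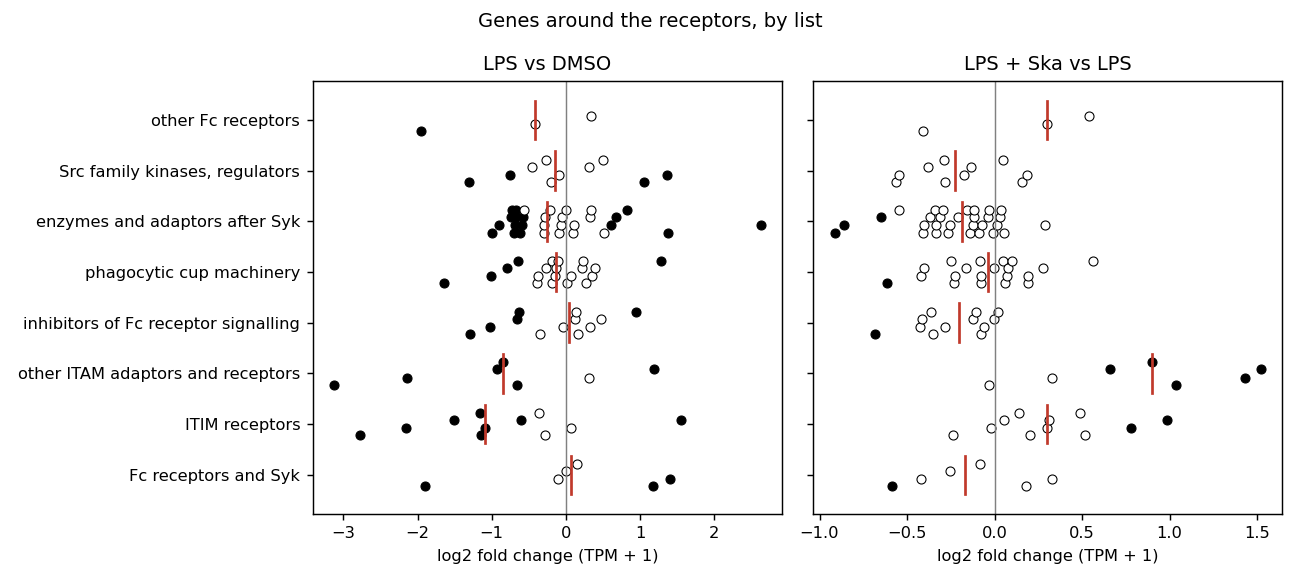
Log2 fold change of each tested gene of the 7 pathway lists in LPS compared with DMSO and in LPS + Ska compared with LPS, and of the 6 genes themselves (bottom row), with a red line at each median and filled points for called genes. The list of other ITAM adaptors and receptors has a median of -0.85 in the first and 0.90 in the second, or -0.75 and 0.85 without Hcst, which has no ITAM.

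The genes whose levels followed each of the 6 most closely were found by Pearson's r of log2(TPM + 1) over 7 values (3 DMSO columns and 2 recovered values of each other group), as a description, since groups set most of such an r. For Fcgr1 these were D3Ertd751e, Tln2 and Plekha1 (r = 0.998, 0.997 and 0.996). For Fcgr3 they were Abcb8, Mum1 and Irak1, for Fcgr4 Nudt5, Pdcd10 and Nup35, and for Fcgr2b Asnsd1, Mcemp1 and Bcap29. For Syk they were Ppp1r21, Relb and Fut10 (0.994, 0.989 and 0.988), and for Fcer1g Pop5, Akr1b8 and Hmox1 (0.954, 0.952 and 0.944). An r above 0.9 was shared by 2548 genes with Fcgr3, 1560 with Fcgr4, 1037 with Fcgr2b, 341 with Syk, 284 with Fcgr1 and 29 with Fcer1g.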

How the data were processed

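RNA from 9 samples of RAW264.7 cells (3 each of DMSO, LPS and LPS + Ska, replicates 5, 6 and 7) was sequenced by the authors with NEBNext Ultra libraries. The authors deposited TPM, the length-scaled share of each transcript, for 55401 genes. The submitters' processing notes list fastp 0.20.1, HISAT2 2.2.1, StringTie 2.0 and mm10, and the annotation and read length were not given in the sources used here. TPM keeps no depth, so depth is unknown and no counting interval could be given. Column totals were 999895 to 1000145 TPM, and 12498 to 13012 genes per column reached 1 TPM.

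The 6 genes and all lists were chosen with earlier results of these data known. Symbols were found for 55141 of the identifiers. Differences were fitted with limma 3.58.1 in R 4.3.3 (functions lmFit and eBayes, the latter with trend on) after a log2(TPM + 1) transform. All 9 columns entered, and the 12819 genes whose mean reached 1 TPM were tested and adjusted together by Benjamini-Hochberg. The methods of the study name one general significance test for all data and refer to earlier work for the RNA-seq analysis, and limma was used here as a test that shares the spread across genes. The fold limits (1.5 and 0.67) are those of the study. Some items are not reported here. Tied columns were used as deposited, and recovered by adding to and subtracting from replicate 5 a share of 0.5 of its gap to replicate 6. The fit was tested on simulated data. Named genes were the 6, up to 4 genes per list (called in LPS + Ska compared with LPS, then in LPS compared with DMSO, by fold change) and the 3 genes nearest to each of the 6. Inpp5d was added after its values were seen. Tyrosine codons, promoters and windows were read from GENCODE M21 and RefSeq (GRCm38).

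Other settings tried were no filter on low values, a pseudocount of 0.1, a mean of at least 5 TPM, median-ratio scaling, only the groups compared, no intensity trend, a replicate block, recovered values, calls by adjusted p alone and each column left out in turn. Same-numbered columns deviated from their group means with correlations of 0.38, 0.15 and 0.13 between LPS and LPS + Ska and of -0.032 to 0.080 for the other pairs. As the LPS and LPS + Ska columns are tied in one form, the replicate numbers were treated as names only. Python 3.11.15 with matplotlib 3.10.9 drew the figures.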

Additional observations from a re-analysis of the deposited data

How the results depend on the processing

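Of 306 alternative fold changes of the 6 genes, 2 lost a call (Fcgr1 in LPS + Ska compared with LPS) and 3 changed sign (Syk in LPS compared with DMSO). A further 21 crossed the p limit inside the fold limits, with no change of call. These were 9 of 17 for Fcgr1 in LPS compared with DMSO (adjusted p up to 0.27), 10 of 17 for Fcer1g in LPS + Ska compared with LPS (up to 0.12) and 1 for Fcer1g in each of the other comparisons. In LPS + Ska compared with LPS, the fall of Fcgr1 was -0.49 after median-ratio scaling and -0.594 to -0.577 with one column left out, and it passed the p limit throughout (adjusted p 1.8e-04 to 0.0034) but lay inside the fold limit after that scaling and without LPS replicate 7. The number of the 6 genes called lower there was then 0, with a range of 0 to 1 over the columns left out, and it was 2 by adjusted p alone (Fcgr1 and Syk), where 1 was called higher (Fcer1g). By adjusted p alone, 3 were lower in LPS + Ska compared with DMSO and 3 higher in LPS compared with DMSO. Of all genes tested, in either direction, 60.3% passed that limit in LPS compared with DMSO. The share was 28.6% in LPS + Ska compared with LPS and 63.3% in LPS + Ska compared with DMSO. The difference of Syk between LPS and DMSO, near 0, was 0.07 after median-ratio scaling and -0.067 to 0.074 with one column left out. Fcgr2b, Fcgr3 and Fcgr4 kept their calls against DMSO in all of these. With the replicate block no call changed (the difference of Fcgr1 between LPS and LPS + Ska was -0.59, adjusted p = 0.0017). The cause of these shifts was not tested, other than that median-ratio scaling moved the median of all genes from -0.10 to -0.01 in LPS + Ska compared with LPS and from -0.175 to -0.02 against DMSO. Depth is unknown and the LPS groups hold at most 2 values a gene, which limits how small a difference could be seen.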

Other observations

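Fcrl1, a Fc receptor-like gene, was the highest of the 3 tested genes of the other Fc receptors and is named here after its values were seen. Its level was 84.3 ± 4.504 TPM in DMSO, 62.9 ± 2.48 TPM in LPS and 77.6 ± 1.82 TPM in LPS + Ska (SD, n = 3 columns), above Fcgr1 in every group. Fcrl1 was lower in LPS than in DMSO by -0.41 (SE 0.059, adjusted p = 2.5e-04 by limma) and higher in LPS + Ska than in LPS by 0.30 (SE 0.059, adjusted p = 0.0059), both inside the fold limit.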
